A study of Mus musculus with 14 samples.

Results

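Gene expression was compared between Notch1+ cells isolated from mouse retinas at embryonic day 14 (E14) and at the day of birth (P0), to find how the isolated progenitors change with stage. The members were the 3 samples labelled E14 Notch1+ cells and the 4 labelled P0 Notch1+ cells, 7 of the 14 samples of the series. The other 7 were whole retinas of the same stages and are described only to show where the isolated cells differ. They also entered the normalization, the choice of the probes and the estimate of the spread in the fit. All mice were of the C57BL/6 strain, and the labels name no engineered allele and no treatment. The cells were taken from papain-dissociated, pooled retinas with a biotin-coupled antibody to Notch1 and magnetic beads, and the RNA of each sample was amplified and hybridized alone to 1 array of oligonucleotide probes. The labels call the samples independent biological replicates, and the cells were chosen by 1 surface protein, so that any cell that carries Notch1 could be among them.

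Retinal progenitor cells are the dividing cells from which all neurons of the retina and the Müller glia arise. Their competence shifts with age: early progenitors mainly give ganglion cells, horizontal cells, cones and early amacrine cells, whereas late progenitors give rods, bipolar cells and Müller glia. Notch1 is a receptor that, once cut by gamma-secretase, acts with Rbpj on Hes genes and holds progenitors in the undifferentiated state, while proneural factors drive the exit to neurons.

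Notch1 itself, by which the cells were selected, had normalized intensities of 21070, 31869 and 23910 at E14 and of 50999, 16413, 28473 and 36611 at P0. The groups overlapped, and the difference (log2 of E14 over P0 of −0.28, adjusted p = 0.608 in the limma fit) did not pass the test. Of 12 progenitor markers, 9 were above background on all 7 arrays. Lhx2 was above it on 2 of the 3 E14 arrays and on all 4 P0 arrays, and Six3 on all 3 and on 3 of 4. Of these 12, only Rax passed the test, as described below.

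On each array, 9332 to 10718 mouse probes were above background, and intensities correlated at r = 0.904 to 0.938 between arrays of the same stage and at 0.843 to 0.905 between arrays of different stages. The limma test was run on 13683 probes, and a call means a Benjamini-Hochberg adjusted p below 0.05 over all of them. All log2 values below are E14 over P0, so a positive value is higher at E14. At E14, 708 probes (5.17%) were higher and 810 (5.92%) were lower, together 11.1%. With 1 probe for each of 8942 genes, 498 genes (5.57%) were higher and 642 (7.18%) lower, 12.7% in all. The counts of list members below stand beside these shares. The median over genes was 0.01. The arrays of the stages did not overlap for 25.1% of genes, and 1448 of the 1518 called probes were without overlap. A change of at least 4-fold was seen in 31 of the probes that were higher and 55 of those that were lower. In 204 of the former no P0 array, and in 262 of the latter no E14 array, was above background, and a fold is then given as a bound. The balance of rises and falls depended on the scaling: it was 1498 higher and 293 lower with arrays scaled to 1 median, where the median of all probes moved to 0.26, 770 and 540 with scaling to 1 75th percentile (0.05), and 1188 and 782 with the values deposited by the authors (0.17). Of the genes named below as lower, Jun, Fos, Neurog1, Olig2, Sox4, Rax, Thra, Otx2, Sag, Dner, Cdkn2c, Rbl2, Egfr, Igf1r, Spry4, Fgf9, Gpc3, Prdm13, Mt1 and Mybbp1a did not pass with scaling to 1 median. With scaling to the 75th percentile Hmga2, Rbpj, Mki67, Neurog1, Sox4, Thra, Otx2, Dner, Igf1r, Fgf9, Mt1 and Mybbp1a did not, and with the authors' values Neurog1, Olig2, Fos, Sox4, Thra, Otx2, Dner, Fgf9 and Mybbp1a did not. Scan day and stage cannot be told apart, since all E14 arrays shared a day and those of P0 Notch1+ cells had another. In such bulk samples, fewer cells of a type and less RNA per cell cannot be told apart either.

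**Figure D1:**
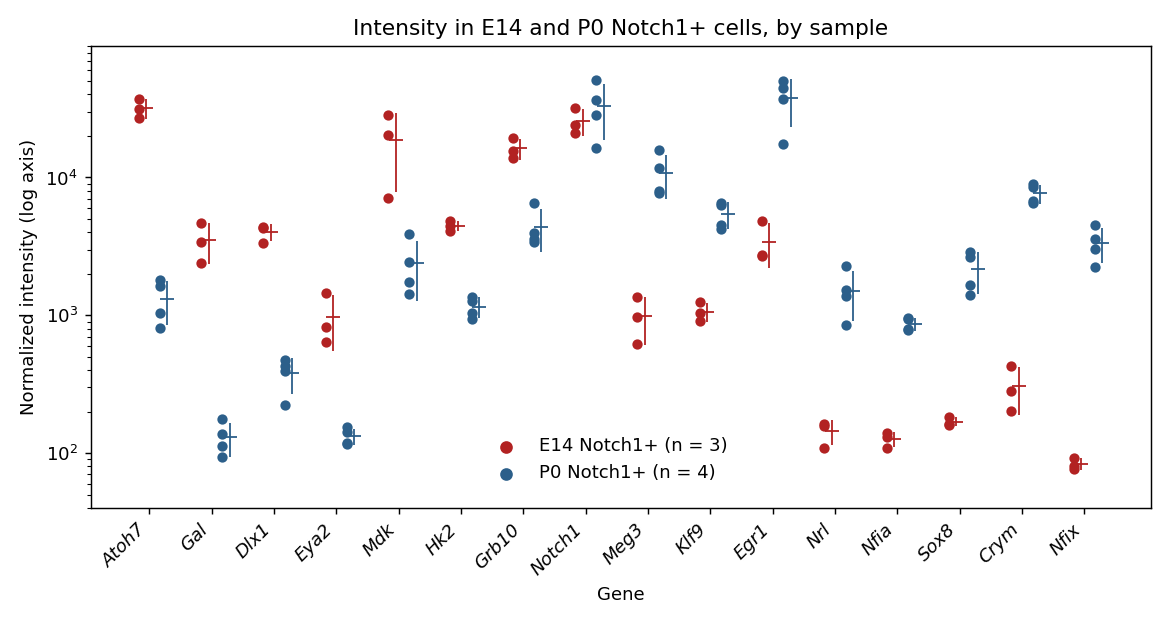
Normalized intensity (log axis) of 16 genes in each of the 3 E14 (red) and 4 P0 (blue) Notch1+ samples, with the mean and the SD beside the points. Except for Notch1, by which the cells were selected, the stages do not overlap for any gene shown here; Atoh7 lies between 26867 and 37306 at E14 against 806 to 1791 at P0, and Nfix between 77.3 and 92.9 at E14 against 2232 to 4485 at P0.

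Promoter sequences are shown for genes on which the results turn, taken from RefSeq (GRCm38.p6) as the 250 bases before each start site. The E-box CAGATG, which reads CATCTG on the other strand, is a core bound by several proneural factors. In capitals, it stands in the promoters of Atoh7, the proneural gene that ganglion cells need, of Nfia, a late progenitor factor, and of Nrl, the gene that fixes the rod fate, with the match beginning 218, 241 and 19 bases before the start. The regions are chr10:63099535-63099784 (plus strand), chr4:97581693-97581942 (plus) and chr14:55524253-55524502 (minus).
Atoh7: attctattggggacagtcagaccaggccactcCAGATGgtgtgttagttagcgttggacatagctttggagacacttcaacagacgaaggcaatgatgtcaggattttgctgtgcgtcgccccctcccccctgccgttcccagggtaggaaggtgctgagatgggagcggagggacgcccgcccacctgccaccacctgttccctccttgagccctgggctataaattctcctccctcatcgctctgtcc
Nfia: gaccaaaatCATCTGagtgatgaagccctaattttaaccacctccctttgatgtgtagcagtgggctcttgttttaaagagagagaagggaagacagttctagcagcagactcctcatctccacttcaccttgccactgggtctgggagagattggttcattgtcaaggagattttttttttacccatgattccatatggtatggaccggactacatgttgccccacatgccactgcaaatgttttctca
Nrl: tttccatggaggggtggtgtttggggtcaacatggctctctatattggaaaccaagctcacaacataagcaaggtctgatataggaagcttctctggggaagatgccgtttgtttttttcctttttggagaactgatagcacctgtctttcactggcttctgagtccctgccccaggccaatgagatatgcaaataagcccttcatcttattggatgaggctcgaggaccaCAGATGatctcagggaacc
With both strands searched over the 250 bases before the start, this E-box was found in 14.5% of the promoters of 27025 genes. It was found in 9.67% of the 7139 tested genes that have a promoter, in 8.7% of those higher at E14 and in 12.7% of those lower. A match is a description of these letters and no measured binding site.

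The core TAATCC, which reads GGATTA on the other strand and to which the photoreceptor factors Otx2 and Crx bind, is shown in capitals in the promoters of Rbp3, a retinoid carrier of the space around photoreceptors, and of Gnat2, the cone transducin, both lower at E14. The regions are chr14:33953753-33954002 (plus) and chr3:108092816-108093065 (plus), and the matches begin 69 and 19 bases before the start.
Rbp3: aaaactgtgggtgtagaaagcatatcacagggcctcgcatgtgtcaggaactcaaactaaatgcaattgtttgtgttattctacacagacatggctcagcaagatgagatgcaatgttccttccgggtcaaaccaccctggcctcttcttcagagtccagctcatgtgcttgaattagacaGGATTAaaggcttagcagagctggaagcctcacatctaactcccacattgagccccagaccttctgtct
Gnat2: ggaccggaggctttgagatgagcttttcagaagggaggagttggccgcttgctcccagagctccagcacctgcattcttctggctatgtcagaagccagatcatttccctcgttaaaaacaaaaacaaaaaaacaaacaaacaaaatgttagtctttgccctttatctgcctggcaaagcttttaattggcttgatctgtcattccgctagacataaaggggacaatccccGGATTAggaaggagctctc
This motif was found in 6.38% of all promoters, 4.96% of those of tested genes, 3.62% of those of genes higher at E14 and 7.05% of those of genes lower.

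The let-7 miRNAs rise as tissues mature and repress Lin28b, Trim71 and Hmga2, and Lin28b in turn blocks the maturation of let-7. They were not measured here, and 3 of them are shown because their targets were. All 8 RefSeq let-7 forms from the 5′ arm share the seed (bases 2 to 8, in capitals).
mmu-let-7a-5p: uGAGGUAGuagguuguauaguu
mmu-let-7b-5p: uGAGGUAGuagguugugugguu
mmu-let-7g-5p: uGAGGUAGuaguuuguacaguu

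Of 32 listed early progenitor factors 26 were tested, 13 were higher at E14, 1 was lower and 12 did not pass, with a median log2 of 0.96 against 0.01 over all genes. Between 9 and 13 were higher when single arrays were left out, and 8 in a fit of the 7 arrays alone. Eya2, a coactivator and phosphatase of the eye field network, had 1454, 828 and 639 at E14 and 154, 142, 117 and 116 at P0. No P0 array was above background, so its rise is a bound, at least 6.18-fold (adjusted p = 1.38e-05). Zfhx4, a large zinc finger and homeobox factor, was likewise at least 2.54-fold higher, with 457, 366 and 288 against 104 to 113.

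Pou2f2, a POU homeobox factor, had 656, 413 and 557 against 123 to 170 (log2 1.86). Foxp1, a forkhead factor of early progenitors, spread widely at E14, with 601, 1283 and 2771, but stayed above the 245 to 371 of P0 (log2 2.11 ± 0.39 SE, adjusted p = 0.00439). Sfrp2, a secreted Wnt antagonist, was at 7991, 7149 and 3536 against 1277, 2558, 1184 and 1012. Its log2 of 2.06 was smaller than the 4.57 in whole retina, and the difference between them passed the test (adjusted p = 0.0228), as it did in 12 of the 14 fits that left out 1 array (up to 0.0575 without E14 retina replicate 1). Onecut1, needed for horizontal cells, was higher by 1.31 in log2, and only 1 of the 4 P0 arrays was above background.

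Sox11 and Sox4 encode related factors of neurogenesis and moved in opposite directions. Sox11 had 15667, 14239 and 20343 at E14 against 6704 to 10581 at P0 (log2 1.01), whereas Sox4 had 3638, 3631 and 8183 against 11086 to 18007 (log2 −1.61). The call of Sox11 was lost without E14 replicate 3 (adjusted p = 0.0544), and that of Sox4 without E14 replicate 1 or 2 or P0 replicate 1, 2 or 3 (up to 0.112). Fgf15, a growth factor secreted by progenitors, had 11881, 9718 and 30174 against 2262 to 6436 (log2 1.77). Its call was lost without E14 replicate 3 or P0 replicate 2 or 4 (adjusted p up to 0.0973).

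Among 22 tested let-7 targets and partners, 6 were higher at E14 and none was lower, with a median of 0.66. Only 3 were higher without E14 replicate 2 or P0 replicate 1, 2 or 4, and the median was 0.21 without E14 replicate 2. Lin28b, which blocks let-7 maturation, had 144, 164 and 230 at E14, above background on 2 of 3 arrays, and 66.9 to 77.2 at P0, where it was never above background. Its rise was at least 1.23-fold (adjusted p = 0.00149). Trim71, an RNA-binding ubiquitin ligase, had 324, 172 and 194 against 106 to 126 and was at least 1.54-fold higher. Hmga2, a chromatin protein of young stem cells, was at least 1.19-fold higher (adjusted p = 0.0418), but its call was lost when any 1 of the 7 arrays was left out (up to 0.133). In whole retina the log2 of Lin28b (1.28), Trim71 (0.88) and Hmga2 (1.44) was positive too.

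**Figure D2:**
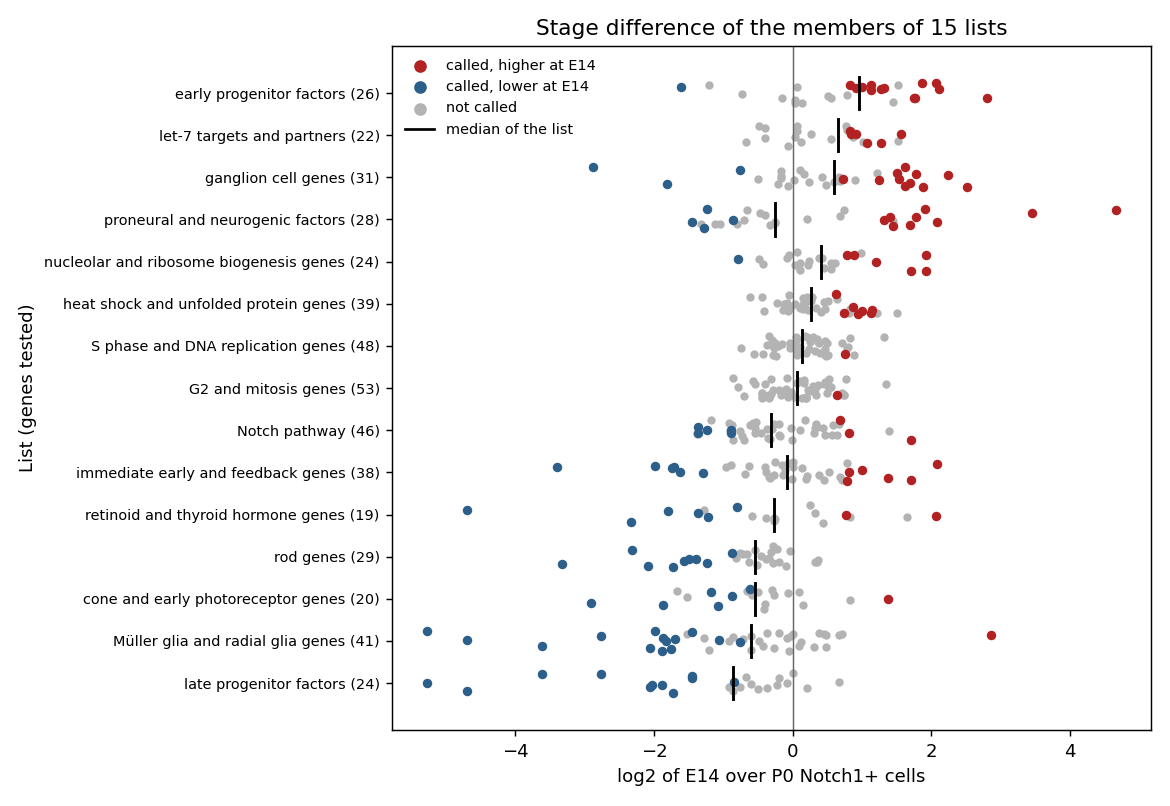
log2 of E14 over P0 Notch1+ cells (horizontal axis) for each tested gene of 15 lists, with the number tested in parentheses. Red and blue points passed the test, gray points did not, and black bars are medians, which run from 0.96 for early progenitor factors to −0.86 for late progenitor factors.

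Proneural and neurogenic factors, which commit progenitors to neurons, moved both ways. Of 28 tested, 9 were higher at E14 and 4 were lower, and the median was −0.25. Without any 1 E14 array 2 were lower, and none was with scaling to 1 median, where the median was 0.26. Atoh7 had 37306, 26867 and 31512 at E14 and 1791, 1035, 1622 and 806 at P0. The lowest E14 array was thus far above the highest P0 array (log2 4.66 ± 0.32 SE, adjusted p = 1.44e-06). Dlx1 and Dlx2, paired homeobox factors of ganglion and inhibitory interneuron fates, were both higher. For Dlx1 the intensities were 4392, 3364 and 4294 against 222 to 475 (log2 3.45), and for Dlx2 1842, 3242 and 4248 against 808 to 1360 (log2 1.41).

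Ebf1 and Ebf2, helix-loop-helix factors of early neurons, were also higher at E14. Ebf1 had 457, 303 and 391 and was never above background at P0, where it was at least 2.61-fold lower, and Ebf2 had 716, 632 and 344 against 176 to 210. Penk, the enkephalin precursor, had 545, 646 and 514 against 135 to 170 (log2 1.90), a larger difference than the 0.61 of whole retina (adjusted p of the difference = 0.0240, past 0.05 in 3 of the 14 fits that left out 1 array and highest, at 0.0628, without E14 replicate 2). Gadd45a, a growth arrest and DNA damage gene, had 24985, 19331 and 16208 against 8801, 5505, 4444 and 2210 (log2 2.09, adjusted p = 0.00432).

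Olig2 and Neurog1 were among the 4 that were lower at E14. Olig2, found in progenitors close to their last division, had 574, 643 and 737 against 979 to 2600 (log2 −1.28), and the call was lost without E14 replicate 1 (adjusted p = 0.0503). Neurog1 had 167 to 230 against 324 to 378 (log2 −0.86), with the call lost without E14 replicate 2 or 3 (up to 0.0582). Neurog2 did not pass (log2 −1.12, adjusted p = 0.213). P0 replicate 4 stood at 3468 and the other 3 P0 arrays at 385 to 703, beside 305 to 529 at E14.

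Ganglion cells are the first neurons of the retina to be born, and more of their genes were higher than lower at E14, with 11 of 31 tested genes higher, 3 lower and a median of 0.59. Only 5 were higher without E14 replicate 1 and 7 without P0 replicate 4. Of the 31 genes, 11 were under background on all 7 Notch1+ arrays, 6 others on all P0 ones and 4 others on all E14 ones. The median was 0.13 with plain background subtraction and 1.22 with the authors' values. In whole retina 15 were higher and 2 lower. Isl1, a homeobox factor that ganglion cells require, had 498, 1506 and 548 at E14 and 112 to 166 at P0, where it was never above background (at least 4.92-fold higher, adjusted p = 0.00484). Isl2 was at least 2.64-fold higher, with 580, 334 and 282 against 115 to 136. In whole retina its log2 was −0.87, and the difference passed the test (adjusted p = 0.0232), as it did in 11 of the 14 fits that left out 1 array (up to 0.0663 without E14 retina replicate 1). Isl2's call within the Notch1+ cells was lost without E14 replicate 1 (adjusted p = 0.0560).

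Elavl4, a neuronal RNA-binding protein, had 1552, 1237 and 1009 against 210 to 314 (log2 2.24), and Sncg, a synuclein of ganglion cells, was at least 2.46-fold higher. Pou4f2, the factor by which ganglion cells are best known, lay under background on all 7 arrays, and no fold is given, although it is among the 11 genes called higher. Thy1, a surface protein of mature ganglion cells, was also under background on all 7 arrays, although it reached 619 to 2257 in P0 retina, and the difference from retina passed the test (adjusted p = 0.00353).

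The genes of this list that were lower at E14 included Cxcr4 and Irx5. Cxcr4, the receptor of a chemokine that guides migrating cells, was under background at E14 (131 to 169) and had 712, 942, 657 and 3308 at P0, at least 7.16-fold higher there. Irx5, a homeobox factor also known from bipolar cells, was at least 2.60-fold higher at P0, with 247 to 472.

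Gal, Chrna3 and Ank2 were also higher at E14. Gal, the galanin precursor, had 2384, 3412 and 4701 at E14 and 94.0 to 177 at P0, below background on every P0 array (at least 22.3-fold higher at E14). Chrna3, a nicotinic receptor subunit, had 1681, 1899 and 2309 against 404 to 606 (log2 1.96, 1.89 in retina). Ank2, an ankyrin of axons, had 4018, 2823 and 1633 against 466 to 539 (log2 2.39).

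Of 24 late progenitor factors tested, 11 were lower at E14, none was higher and 13 did not pass, with a median of −0.86. Between 8 and 11 were lower when single arrays were left out. With scaling to 1 median 8 were lower and the median was −0.32. All 4 genes of the nuclear factor I family, which late progenitors need for bipolar cells and Müller glia, were among the 11. Nfix was under background at E14, with 92.9, 77.3 and 80.8, against 4485, 2232, 3039 and 3585 at P0, a fall at E14 of at least 22.4-fold (adjusted p = 8.00e-09). Nfia had 141, 110 and 131 against 791, 779, 946 and 948, at least 5.97-fold higher at P0.

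Nfib had 181, 147 and 142 against 524 to 979 (log2 −2.06), and Nfic had 788, 501 and 446 against 1457 to 3197 (log2 −2.04). Over the 12 tested probes of the 4 genes, 11 were lower and none was higher, and for Nfix the 3 probes ranged from −5.28 to −1.36. In whole retina the log2 was −4.62 for Nfix, −2.05 for Nfia, −1.36 for Nfib and −1.11 for Nfic. Nfix was under background on all E14 retina arrays, so its value has no exact size. None of the 4 differences between Notch1+ cells and retina passed the test.

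Sox8, a factor of the SoxE group that also holds Sox9, had 160, 164 and 183 at E14 and 2878, 1669, 1406 and 2668 at P0 (log2 −3.61 ± 0.32 SE, adjusted p = 2.06e-05). Sox9, which progenitors and Müller glia share, did not pass (log2 −0.09), with 4230, 1414 and 1154 against 1892 to 2167. Rax, a homeobox factor of progenitors, photoreceptors and Müller glia, had 359, 243 and 888 against 667, 1774, 1523 and 2177, so the groups overlapped. Its log2 of −1.72 passed the test (adjusted p = 0.0215), but not without E14 replicate 1 or 2 or P0 replicate 4 (up to 0.0960).

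Müller glia and radial glia genes were lower at E14 in 14 of 41 tested and higher in 1. Their median was −0.60 (−0.16 with scaling to 1 median). The 14 included Nfia, Nfib, Nfix, Sox8 and Crym, which the late progenitor list also holds. Of 10 tested astrocyte and optic nerve markers, 4 were lower (2 without E14 replicate 1) and 1 was higher (none without any 1 array other than P0 replicate 2). Their median was −0.68 and their summed intensity 5767 to 9567 at E14 and 7342 to 9017 at P0, and their part in the glial values was not tested. Rlbp1, the retinaldehyde-binding protein of Müller glia and pigment epithelium, was under background at E14 and had 148 to 317 at P0 (at least 1.62-fold higher). Apoe, the lipid carrier secreted by glia, had 210, 193 and 237 against 997, 808, 509 and 652 (log2 −1.76, −1.78 in retina). Fabp7, a fatty acid-binding protein of radial glia, had 230, 258 and 230 against 804 to 938 (log2 −1.88).

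Car2, a carbonic anhydrase, and Espn, an actin-bundling protein, were lower at E14 by 1.89 and 1.83 in log2, and Itm2b by 1.70. Ccn1, a matrix protein that immediate signals induce, had 567, 414 and 348 against 2492, 1931, 1451 and 1272 (log2 −1.99). In whole retina its log2 was −0.27, and the difference passed the test (adjusted p = 0.0170). By contrast, Glul, the glutamine synthetase of mature Müller glia, and the filament gene Vim did not pass (log2 0.00 and 0.12), and their groups overlapped. The member that was higher at E14 was Mdk, a heparin-binding growth factor, with 20342, 28238 and 7126 against 1417, 2415, 3916 and 1756 (log2 2.86).

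In the list of retinoid and thyroid hormone genes, 6 of 19 tested were lower and 2 higher, with 1 higher without E14 replicate 1 or 2 or P0 replicate 1 or 3. Crym, which binds thyroid hormone in the cytosol, had 283, 203 and 431 at E14 and 8460, 8897, 6746 and 6535 at P0 (log2 −4.70). Klf9, a direct target of the hormone in the brain, had 1241, 904 and 1032 against 4252, 6345, 4490 and 6495 (log2 −2.33, adjusted p = 4.86e-05).

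Hr, a corepressor of the hormone's receptors, was under background at E14 and at least 1.90-fold higher at P0, with 226 to 324. Thra, a receptor of the hormone, had 244, 279 and 631 against 558 to 1339, with an overlap, and its call (adjusted p = 0.0399) was lost without E14 replicate 1 or 2 or P0 replicate 1, 3 or 4 (up to 0.144). Crabp1, a carrier of retinoic acid, moved the other way, with 3310, 2046 and 2629 against 412 to 888 (log2 2.07, adjusted p = 0.00295).

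Rod genes were lower at E14 in 9 of 29 tested, and none was higher. The median was −0.54, against −2.06 in whole retina, where 21 of the 29 were lower, and for 12 of the 29 the stage difference itself differed between Notch1+ cells and retina. Only 5 were lower without E14 replicate 2, and 18 were with the authors' values. Of the 29, 7 were under background on all 7 Notch1+ arrays, 11 others on all E14 ones and 1 on all P0 ones, so the median has no exact size. It was −1.71 with the authors' values. Nrl had 110, 164 and 158 at E14 and 843, 2272, 1514 and 1387 at P0 (log2 −3.32 ± 0.42 SE, adjusted p = 0.000420, −4.48 in retina). Impdh1, which makes guanine nucleotides, had 1844, 1482 and 1521 against 5825 to 8576, with nearly equal log2 values of −2.09 in Notch1+ cells and −2.13 in retina.

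For Rbp3 the intensities were 198, 139 and 173 against 719, 813, 1229 and 686. Its log2 of −2.32 was less than the −4.67 of retina (adjusted p of the difference = 0.00484). The outer segment proteins Rom1 and Prph2 were under background at E14 and at least 2.52-fold and 1.33-fold higher at P0, with log2 values of −3.36 and −3.68 in retina. The difference from retina of Prph2 passed in 4 of the 14 fits that left out 1 array (adjusted p up to 0.0850 without E14 retina replicate 2). Sag, the rod arrestin, was at least 1.28-fold and Kcnv2, a potassium channel subunit, at least 1.08-fold higher at P0, and both calls were lost without E14 replicate 2 (adjusted p = 0.0563 and 0.0570). Rcvrn (recoverin) and Pde6b (the rod phosphodiesterase) were under background on all 7 Notch1+ arrays, with log2 values of −2.17 and −2.20 in retina and a difference that passed the test for each (adjusted p = 0.000401 and 0.00785).

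Among 20 cone and early photoreceptor genes, 6 were lower at E14 and 1 was higher, with a median of −0.55. Without E14 replicate 1 or 2 only 3 and 2 were lower, and none was higher without any 1 array other than E14 replicate 3. In retina 15 were lower. Of the 20, 4 were under background on all 7 Notch1+ arrays and 3 others on all E14 ones, and the median was −1.20 with the authors' values. Gngt2, a cone transducin subunit, had 103, 134 and 154 at E14 against 648, 1590, 760 and 1095 at P0 (log2 −2.90, adjusted p = 0.000394). Gnat2 was at least 1.33-fold higher at P0, and its call was lost without E14 replicate 2 (adjusted p = 0.0531). Its difference from retina passed in 1 of the 14 fits that left out 1 array (up to 0.112 without E14 retina replicate 3). Otx2, which specifies photoreceptors and bipolar cells, had 25458, 18272 and 25669 against 32802 to 37307. Its log2 of −0.61 (adjusted p = 0.0332) became 0.05 with scaling to 1 median and the call was lost without any 1 array other than E14 replicate 3 (up to 0.130), while in retina it was −2.08 (adjusted p of the difference = 0.00852). Crx, the factor next in line, had 867, 767 and 311 against 355 to 708 and did not pass (log2 0.14, −1.92 in retina).

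**Figure D3:**
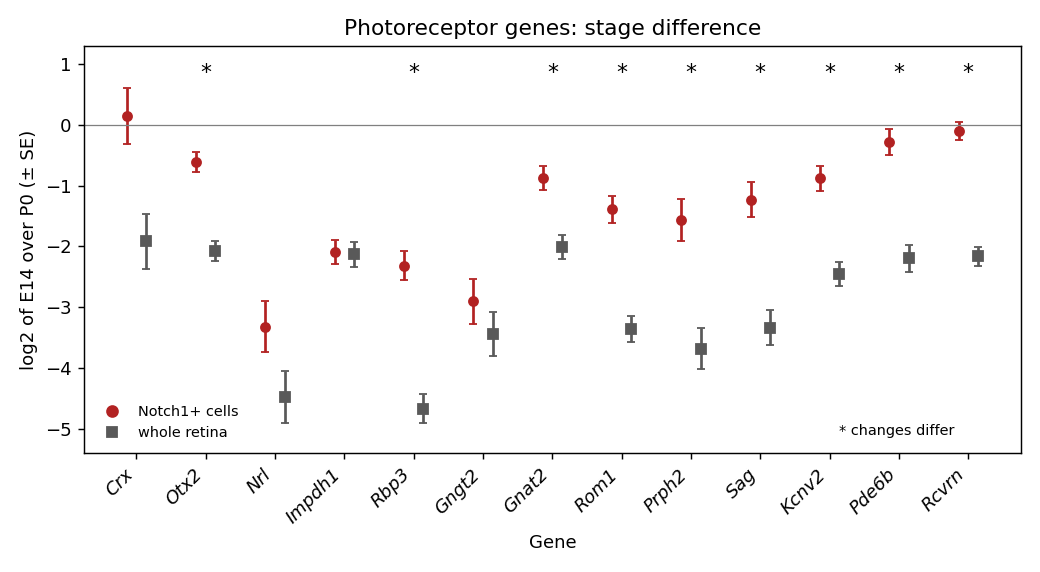
log2 of E14 over P0 (vertical axis, ± SE) of 13 photoreceptor genes in Notch1+ cells (red circles) and in whole retina (gray squares); a star marks genes whose stage difference differed between them at an adjusted p under 0.05. Impdh1 lies at −2.09 and −2.13, whereas Rbp3 lies at −2.32 in Notch1+ cells and −4.67 in retina; values of genes under background at E14 understate the difference.

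The Notch pathway genes that passed the test moved in both directions. Of 46 tested, 3 were higher at E14 and 5 lower, beside 5.57% and 7.18% of all genes, and the median was −0.31 (0.17 with scaling to 1 median). None was higher without E14 replicate 1 and 1 without P0 replicate 3. Among the ligands, Dll3 had 4375, 2388 and 1422 against 468 to 1252 (log2 1.70), whereas Dll1 had 525, 2194 and 1330 against 1826 to 3464 and did not pass (log2 −1.18). Dll3's call was lost without E14 replicate 1 or 2 or P0 replicate 1 or 3 (adjusted p up to 0.100). The other genes that were higher were Notch4, a receptor of vessels (log2 0.81, lost without E14 replicate 1, adjusted p = 0.0791), and Rbpj, the DNA-binding partner of cut Notch (log2 0.68). Rbpj had 252 to 257 against 126 to 207 and lost its call without any E14 array or P0 replicate 3 or 4 (adjusted p up to 0.0941).

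Dner, a ligand-like protein of neurons, and Aph1a, a subunit of gamma-secretase, both had a log2 of −1.37. Dner lost its call without E14 replicate 3 (adjusted p = 0.0678). Of the target genes, Hey2 was under background at E14 and at least 1.12-fold higher at P0. Hes1 had 2009, 1224 and 675 against 1497 to 3574, and Hes5 had 10000, 1884 and 4068 against 6994 to 11359. Both overlapped and did not pass (log2 −0.86 and −0.92), although Hes5 passed without E14 replicate 1 (log2 −1.54, adjusted p = 0.0219).

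Few genes of division passed the test with quantile normalization. Of 48 tested S phase and DNA replication genes 1 was higher at E14 (median 0.14), and of 53 tested G2 and mitosis genes 1 was higher (median 0.06). With scaling to 1 median, 9 of the 53 were higher and the medians were 0.54 and 0.47, beside 0.26 over all probes. In whole retina 15 of the 48 were higher (median 0.70) and 8 of the 53. The S phase gene was Orc1, which marks replication origins (158 to 196 against 95.6 to 120, at least 1.22-fold), and the mitotic gene was Mki67 (161 to 202 against 103 to 135, at least 1.27-fold, lost without E14 replicate 1 at an adjusted p of 0.0694). Pcna, the sliding clamp of replication, and Ccnb1, the mitotic cyclin, overlapped between the stages and did not pass (log2 0.32 and 0.19).

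Of 26 tested regulators of the start of the cycle 3 were higher at E14 and 3 lower, beside 5.57% and 7.18% of all genes. Only 1 was higher without E14 replicate 1 or P0 replicate 2 or 3. E2f3, an activator of S phase genes, had 1289, 1147 and 1159 against 556 to 701 (log2 0.95). Cdkn2c, an inhibitor of Cdk4 and Cdk6, had 1764, 1404 and 1390 at E14 and 3779, 3294, 3356 and 2802 at P0 (log2 −1.12 ± 0.15 SE, adjusted p = 0.000764). Rbl2, a pocket protein that silences E2F targets in resting cells, was lower by 1.06 in log2. Ccnd1, the cyclin of retinal progenitors, had 34556 to 46006 against 39996 to 64534, and did not pass (log2 −0.41).

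Of 38 immediate early genes, which respond within minutes to signals, 6 were higher at E14 and 6 lower, beside 5.57% and 7.18% of all genes. Egr1 had 2713, 4836 and 2716 at E14 and 44740, 17614, 37308 and 50045 at P0 (log2 −3.40 ± 0.31 SE, adjusted p = 2.60e-05, −2.84 in retina). In E14 retina Egr1 was under background on every array (mean 99.1), so the retina value has no exact size. Its mean in P0 retina was 711. At both stages retina thus lay far below the isolated cells, and the cause was not tested. The AP-1 subunits Fos, Jun and Junb were lower too. Fos had 4038, 3500 and 3790 against 18273, 8137, 6767 and 18276 (log2 −1.63), and Jun 1705, 1419 and 1410 against 3522 to 7078 (log2 −1.74). Junb had 174 to 368 against 700 to 1143 (log2 −1.71).

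The small Maf factors Mafk and Maff, which pair with stress-response factors, were higher at E14. Mafk had 224, 340 and 284 at E14 and at most 158 at P0, and Maff was at least 1.44-fold higher. Klf4, a Krüppel-like factor of epithelia and stem cells, has several probes. One had 655, 836 and 573 at E14 and 114 to 127, below background, at P0 (a rise of at least 4.74-fold, adjusted p = 7.77e-07). In retina this probe was under background on all arrays (log2 0.15), and the difference passed the test (adjusted p = 0.000235). Another probe, with the highest mean, had 504, 2558 and 762 against 217 to 445 (log2 1.70), and its call was lost without E14 replicate 2 or P0 replicate 2 or 3 (adjusted p up to 0.0781).

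Genes of metabolism, ribosomes and protein folding are given beside the 5.57% of all genes that were higher at E14, and the counts of the oxidative phosphorylation and ribosomal protein lists lie near that share. Of 23 glycolysis genes 5 were higher and 1 lower, and only 2 were higher without E14 replicate 2 or 3 or P0 replicate 1 or 4 and 3 without E14 replicate 1 or P0 replicate 3. In retina none was higher and 6 were lower. Hk2, the inducible hexokinase, had 4444, 4805 and 4080 against 944 to 1364 (log2 1.96 ± 0.19 SE, adjusted p = 4.86e-05). In retina its log2 was 0.26, and the difference passed the test (adjusted p = 0.00839). Gapdh had 26657, 23324 and 23024 against 2459, 12297, 4701 and 4002 (log2 2.31, 0.03 in retina). The glycolytic gene that was lower was Pfkp, a phosphofructokinase (log2 −1.68), and its call was lost without E14 replicate 2 (adjusted p = 0.0510).

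Of 68 subunits of oxidative phosphorylation 4 were higher and 1 lower, and 2 were higher without E14 replicate 1 or P0 replicate 1 or 3. Atp5b, a catalytic subunit of the ATP synthase, had 30605, 24984 and 31871 against 3651, 3423, 7150 and 4769 (log2 2.67, 0.26 in retina, adjusted p of the difference = 0.00481), and Ndufab1 was at least 2.13-fold higher. Of 75 cytoplasmic ribosomal protein genes 4 were higher and none lower, with 7 higher without E14 replicate 3 or P0 replicate 2 and 24 with scaling to 1 median. Rps2 had 17787, 18820 and 12296 against 2262 to 3184 (log2 2.52), while Rps24 and Rpl14 had log2 values of 1.35 and 1.09. The median over the 75 was 0.21 (0.84 with scaling to 1 median), beside the 2.52 of Rps2.

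Among 24 genes of the nucleolus 6 were higher and 1 lower, with 3 higher without E14 replicate 2. Npm1, the nucleolar chaperone, had 2057, 1820 and 1215 against 320 to 520 (log2 1.92), Pes1 a log2 of 1.70 and Polr1a, the large subunit of RNA polymerase I, 1.21. The gene that was lower was Mybbp1a (log2 −0.79), but its log2 was −0.13 with scaling to 1 median, −0.33 with scaling to the 75th percentile and −0.31 with the authors' values, and it passed under none of these (adjusted p up to 0.724). Heat shock and unfolded protein genes were higher in 7 of 39 and lower in none, and only 3 were higher without E14 replicate 2. Ddit3, a factor of the stress of the endoplasmic reticulum, had 449, 493 and 659 against 188 to 295 (log2 1.12). Of 16 housekeeping genes 4 were higher, among them Gapdh and Ppia (log2 1.46). Actb had 58609 to 60169 against 54614 to 64534 (log2 −0.03), and the stages overlapped.

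Imprinted growth genes and the insulin-like growth factor system showed changes in both directions. Grb10, an adaptor that restrains insulin signaling, had 19333, 13878 and 15575 at E14 against 6580, 3378, 3568 and 3923 at P0 (log2 1.94, adjusted p = 0.00171). Igf2 had 1667, 738 and 2011 against 273 to 608 (log2 1.71), and lost its call without E14 replicate 1 or 3 (adjusted p up to 0.0546). In retina its log2 was −0.98, and the difference passed the test (adjusted p = 0.0228). Meg3, a maternally expressed long RNA, moved the other way, with 975, 619 and 1368 against 11647, 7697, 7991 and 15926 (log2 −3.46, −0.83 in retina). The difference from retina (adjusted p = 0.0423) passed in 4 of the 14 fits that left out 1 array and had an adjusted p of up to 0.103 without E14 retina replicate 1.

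Igfbp5, a binding protein of these factors, had 1525, 5296 and 4769 against 1101, 621, 613 and 582 (log2 2.26). The receptor Igf1r was lower at E14, with 255, 467 and 725 against 1147 to 1861 (log2 −1.66), and was not called without E14 replicate 1 or 2 or P0 replicate 3 or 4 (adjusted p up to 0.104). Of 34 genes of FGF, EGF and IGF signaling 3 were higher and 7 lower, beside 5.57% and 7.18% of all genes, with 1 higher without E14 replicate 3. Egfr, the receptor by which late progenitors answer to EGF, had 191, 283 and 166 against 434 to 609 (log2 −1.23, adjusted p = 0.0103). Spry4, a feedback inhibitor of FGF signaling, and Fgf9, a ligand, were lower by 0.96 and 0.85 in log2. Scaling to 1 median ended both calls (log2 −0.58 and −0.35, adjusted p = 0.0568 and 0.341), and that of Fgf9 was also lost with scaling to the 75th percentile and with the authors' values.

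Genes of guidance, matrix and synapses are given beside the 5.57% of all genes that were higher and the 7.18% that were lower at E14. Of 47 axon guidance and adhesion genes 4 were higher and 7 lower, and 2 were higher without E14 replicate 1 or 3 or P0 replicate 3. Sema5a and Sema5b, transmembrane semaphorins that hold the processes of inner retinal neurons in place, had 192, 323 and 486 against 1331 to 2408 (log2 −2.55) and 149, 237 and 138 against 366 to 623 (log2 −1.55). Pcdh19, a protocadherin, was at least 3.12-fold higher at E14 (571, 454 and 344 against 114 to 147). Nrp1, a semaphorin receptor, had 113, 138 and 226 at E14 and 425 to 967 at P0 for 1 of its probes (log2 −2.12), whereas in retina that probe had a log2 of 0.80 (adjusted p of the difference = 0.00719). The other Nrp1 probe did not pass (log2 −1.19).

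Of 44 matrix genes 4 were higher and 7 lower. Without E14 replicate 3 or P0 replicate 1 or 4, 2 were higher, and without E14 replicate 1 or 2 or P0 replicate 1, 4 were lower. Col2a1, the collagen of the vitreous and of cartilage, had 1133, 1511 and 1959 against 12380, 8089, 9431 and 2706 (log2 −2.25). The glypicans moved in opposite directions, Gpc2 with a log2 of 1.40 and Gpc3 with one of −1.30. One probe of Itga6, a laminin receptor subunit, was higher at E14 with a wide spread (3361, 866 and 431 against 153 to 247, log2 2.57). Another probe (log2 1.90, adjusted p = 0.0496) lost its call without any 1 array other than E14 replicate 2 (up to 0.180). In the Wnt pathway, 3 of 38 genes were higher and 4 lower (2 without E14 replicate 3 or P0 replicate 1 or 4), near the shares of all genes. Among them were Lgr5, a receptor of R-spondins (at least 1.19-fold higher), and Tle2, a corepressor (log2 −1.44).

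Synapse and transmitter genes were higher in 5 of 50 and lower in 10, beside 5.57% and 7.18% of all genes. Npy was under background at E14 (59.0 to 67.4) and had 191 to 272 at P0 (at least 1.62-fold higher). The vesicle proteins Syp and Vamp1 were lower at E14 by 1.28 and 1.12 in log2. The glycine transporter Slc6a9, which marks glycinergic amacrine cells, had 194 to 289 against 484 to 1239 (log2 −1.44). Prdm13, a factor of amacrine cells, had 241, 178 and 228 against 406 to 701 (log2 −1.40). In the list of amacrine and horizontal cell genes, 5 of 32 were higher at E14, with Dlx1, Dlx2, Ebf2 and Onecut1 among them, and 4 were lower, 2 without any 1 E14 array.

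Other genes ranked among the largest differences. Ppp1r14a, an inhibitor of myosin phosphatase, had 3643, 3574 and 3279 at E14 and 270, 459, 309 and 96.7 at P0 (log2 3.82 ± 0.38 SE), and in retina its log2 was 0.65 (adjusted p of the difference = 0.00933). Phlda1 had 1588, 2291 and 3545 against 212 to 524 (log2 2.87, 0.23 in retina, adjusted p of the difference = 0.00933). Nckap5 and Tmem178 were higher at E14 by 2.83 and 2.67 in log2.

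Of the genes that were lower, Myh14, a non-muscle myosin, was under background at E14 (90.0 to 93.0) and had 2162, 1824, 1586 and 1493 at P0, at least 12.1-fold higher. Gcnt1, an enzyme that branches O-glycans, had 208, 108 and 129 against 2802, 2675, 2733 and 1501 (log2 −4.05 ± 0.25 SE, adjusted p = 7.40e-07). In retina its log2 was −0.66, and P0 retina had only 191 to 235 (adjusted p of the difference = 0.000401). Cd72, known from B cells, was at least 5.33-fold higher at P0, with 711 to 915 against 65.4 to 78.3.

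Tprn and Sptb, both linked to the membrane skeleton, had log2 values of −3.45 and −3.51, Ncald, a neuronal calcium sensor, −2.95, and Scarb1, a receptor for lipoproteins that also takes up carotenoids, −2.91. Mt1, a metallothionein, had 230, 147 and 156 against 882, 7481, 729 and 1514 (log2 −3.24), and its call (adjusted p = 0.0440) was lost without any 1 array other than P0 replicate 3 (up to 0.117).

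The stage differences of Notch1+ cells and of whole retina correlated across genes (r = 0.419 over 8942 genes, which are not independent replicates). Of the 1140 genes called in Notch1+ cells, 965 had the same sign in retina, 428 were also called there in the same direction and 16 in the opposite one. The stage difference differed between the cell populations for 338 probes (2.47%), 208 relatively higher and 130 relatively lower at E14 in Notch1+ cells, and for 255 genes (2.85%). The count of probes was between 138 and 225 without E14 Notch1+ replicate 1 or 2, P0 Notch1+ replicate 3 or 4 or any 1 E14 retina array, lowest without E14 retina replicate 1.

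The 10 largest fitted differences, which rest on signals under background for Thy1 and Adrb1 in Notch1+ cells and in E14 retina and so have no exact size there, were those of Thy1, H1f2, Gcnt1, Ppp1r14a, 2610042L04Rik, Adrb1, Nrp1, Tunar, Glrx5 and Igf2. H1f2, a linker histone, had 161, 555 and 264 at E14 and 192 to 362 at P0 in Notch1+ cells, but 2425 to 5586 in P0 retina. Adrb1, the beta-1 adrenergic receptor, was under background on all 7 Notch1+ arrays and had 693 to 1183 in P0 retina. Tunar, a long RNA of neural tissue, had 899, 729 and 899 against 214 to 348 (log2 1.65), and in retina the reverse (log2 −1.20, adjusted p of the difference = 0.00484). Glrx5, a mitochondrial glutaredoxin, did not pass in Notch1+ cells (log2 −0.63) and had a log2 of 2.13 in retina. For 2610042L04Rik the log2 was 2.15 in Notch1+ cells, lost without E14 replicate 1 or 2 (adjusted p up to 0.0702), and −0.94 in retina. The differences of Glrx5, 2610042L04Rik and Igf2 did not pass without every array (adjusted p up to 0.103, 0.0978 and 0.0632, the first and the last without E14 retina replicate 1 and the other without E14 retina replicate 3), and they passed in 4, 2 and 11 of the 14 fits that left out 1 array. The other 7 passed in all 14.

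**Figure D4:**
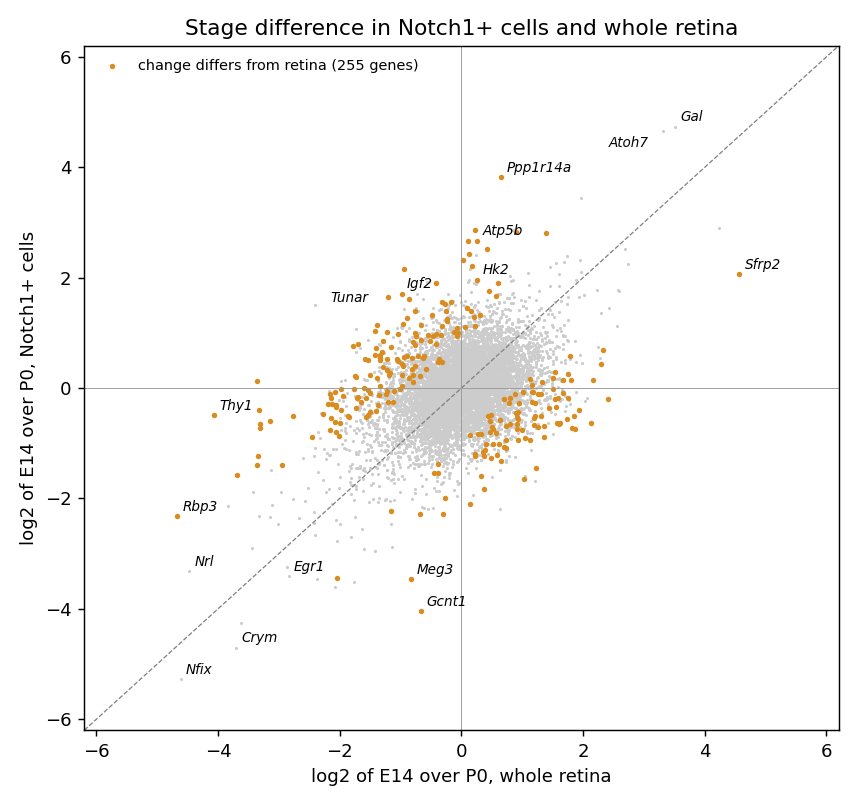
log2 of E14 over P0 in whole retina (horizontal axis) and in Notch1+ cells (vertical axis), 1 point per tested gene, with the dashed line where both are equal; orange points are the 255 genes whose stage difference differed between the populations at an adjusted p under 0.05. Gal, Atoh7, Nfix and Crym lie at the ends in both populations, while Ppp1r14a, Gcnt1 and Meg3 lie far from the line, with −4.05 in Notch1+ cells and −0.66 in retina for Gcnt1.

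Markers of other cells were measured beside these results, and their counts stand beside 5.57% of all genes higher and 7.18% lower. Of 8 tested erythroid genes 3 were higher at E14. Their summed intensity was 5139 to 6124 at E14 and 2029 to 2494 at P0, and Hbb-y, an embryonic globin, had 236, 832 and 492 at E14 and was under background at P0 (at least 3.20-fold higher). Of 18 endothelial and pericyte markers 2 were higher and 2 lower (4 lower without E14 replicate 1, 1 without E14 replicate 2, and 1 higher without E14 replicate 1), with sums of 3697 to 7778 and 5071 to 10018. Cldn5, a tight junction protein of vessels, had 752, 572 and 526 against 1993, 3021, 2586 and 2180 (log2 −1.99), and Acta2, smooth muscle actin, moved the other way (log2 1.21). Lens crystallin genes (10 tested) and microglia markers (9 tested) had none that passed the limma test, with lens sums of 1020 to 1260 at E14 and 1139 to 2807 at P0 and microglia sums of 1039 to 1261 and 987 to 1585. Of 7 tested pigment epithelium genes Rlbp1 was lower (sums of 1250 to 1365 at E14 and 1238 to 1750 at P0), and of 5 mesenchyme and cornea markers 2 were (620 to 827 and 745 to 976), 1 without any 1 array other than P0 replicate 4. The part of other cells in the results above was not tested.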

How the data were processed

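RNA of 3 E14 and 4 P0 Notch1+ samples and of 7 whole retinas was measured on 14 arrays of MEEBO oligonucleotides, 1 per sample. The authors amplified and biotin-labelled the RNA and deposited unnormalized GenePix median intensities for the spots and the background around them, with a quality flag, deposited as a score. They also deposited a table of log2 values, normalized by 1 factor per array in a way not given in the sources used here, which was used as an alternative. Spots with a bad flag were left out. Intensities were corrected with normexp (offset 50) and quantile-normalized over the 14 arrays. A spot was above background where its background-subtracted signal exceeded 2 SDs of its background, and probes above it on at least 3 of the 14 arrays were tested. Probes were named through RefSeq tables: 23629 of 34312 mouse probes had a symbol, for 16098 genes, each represented by the tested probe of highest mean.

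limma 3.58.1 in R 4.3.3 fitted the means of the 4 groups, and each difference was called at a Benjamini-Hochberg adjusted p under 0.05. This model also stands behind every adjusted p given for the groups of 3 and 4. The number of arrays limits the precision (median SE of 0.26 in log2), and p-values measure the spread between these samples. For a probe under background on all arrays of a group, the fold is a bound: the mean of the other group against the dim group's mean of, per array, the higher of the probe's own signal and the lowest signal above background. Tested on simulated data for this comparison (13673 probes, 100 changed at each size), the fit recovered 43% of log2 changes of 1 and 90% of those of 2.

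The members and gene lists were chosen with earlier results of these data known. The genes named are the top 15 in each direction by log2 without overlap, up to 5 called members per direction of each list with members whose role the list turns on, and the 10 largest differences from retina. Not every gene that this rule allows is named, and some are not reported here. Alternatives were other background corrections, scalings, filters and models, the authors' values, the methods' t-test, and leaving out each array in turn.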

Additional observations from a re-analysis of the deposited data

Results flagged for a closer look

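Among the 166 named probes, 4 had 1 P0 Notch1+ array that stood far from the other 3. Chance gives this in about 1 group in 20, so these are no more than chance gives. These were Vim in replicate 4 (5633), Igfbp5 in replicate 1 (1101), Gcnt1 in replicate 4 (1501) and Hes5 in replicate 3 (11359).

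For 41 named probes the stage difference itself differed between Notch1+ cells and whole retina in the limma fit, and 22 of these passed when each of the 14 arrays was left out in turn. In the others it was lost in 1 or more of these 14 fits. The values below are log2 of E14 over P0 in Notch1+ cells minus that in retina. Among photoreceptor genes, the difference was 2.35 for Rbp3, 2.11 for Sag, 2.11 for Prph2, 2.07 for Rcvrn, 1.97 for Rom1, 1.92 for Pde6b, 1.58 for Kcnv2, 1.46 for Otx2 and 1.14 for Gnat2. Rcvrn and Pde6b were under background on all 7 Notch1+ arrays, and Rom1, Prph2, Sag, Kcnv2 and Gnat2 on all E14 ones, so these differences have no exact size. That of Prph2 passed in 4 and that of Gnat2 in 1 of the 14 fits that left out 1 array.

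Among genes of neurons and early progenitors, it was 3.57 for Thy1, 2.85 for Tunar, 2.49 for Isl2, 1.42 for Eya2, 1.31 for Pcdh19 and 1.295 for Penk, and −2.51 for Sfrp2. Of the 14 fits that left out 1 array, it passed in 2 for Eya2, 9 for Pcdh19, 11 each for Isl2 and Penk and 12 for Sfrp2. Among genes of metabolism, ribosomes and growth, it was 2.69 for Igf2, 2.41 for Atp5b, 2.28 for Gapdh, 2.10 for Rps2, 1.70 for Hk2 and 1.37 for Ppia, and −1.26 for Mybbp1a, −2.64 for Meg3, −2.69 for Igf1r and −2.77 for Glrx5. When 1 array was left out, the difference passed in 1 of 14 fits for Gapdh, in 4 each for Ppia, Meg3 and Glrx5, in 5 for Igf1r and in 11 for Igf2. Among signal-responsive genes, it was 2.64 for Phlda1, 2.34 for 1 probe of Klf4, 1.44 for Ddit3 and 1.07 for Mafk, and −1.72 for Ccn1. That of Ddit3 passed in 4 and that of Mafk in 3 of these 14 fits.

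Of the rest, the difference was 3.48 for H1f2, 3.17 for Ppp1r14a, 3.10 for 2610042L04Rik, 2.93 for Adrb1, 2.55 for Tmem178, 1.93 for Nckap5 and 1.45 for Acta2. Those of 2610042L04Rik and Acta2 passed in 2 each of the 14 fits that left out 1 array, Nckap5 in 11 and Tmem178 in 13. It was −3.38 for Gcnt1, −2.93 for 1 probe of Nrp1 and −1.41 for Cd72.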

How the results depend on the processing

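Of 147 called genes that were named, 113 kept their call when each array was left out in turn and 95 under every alternative. The only one that reversed was Otx2, at 0.0463 with scaling to 1 median. The cause was not tested.

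The 708 probes higher, 810 lower and 338 with a difference from retina became 1498, 293 and 591 with scaling to 1 median, and 2302, 2142 and 586 with no filter on dim probes, where more probes were tested. With the authors' values 1188 were higher. With the 7 Notch1+ arrays alone, 326 were higher and 403 lower, and Sncg, Maff, Trim71, Fgf15, Sox11, Dll3, Notch4, Rbpj, Mki67, Olig2, Otx2, Rax, Thra, Mt1, Slc6a9 and both probes of Itga6 and 1 of Klf4 were not called. With the mark of a second dip, which 10 of the 14 and 3 of the 7 Notch1+ arrays carry, as a covariate, 194 differed from retina. Leaving out 1 array gave 398 to 604 higher, 408 to 722 lower and 138 to 341 that differed. The methods' t-test at a p below its threshold and at least 2-fold gave 392 higher and 467 lower, and 227 and 204 after Benjamini-Hochberg adjustment.

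With the replicate number as a block, 438 probes were higher, 533 lower and 195 differed from retina. Same-numbered E14 and P0 samples deviated together with r of 0.118, −0.0642 and −0.0274. These lay within the −0.123 to 0.161 of samples with different numbers. So few pairs cannot exclude that the numbers pair the samples.

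Dim probes limit what could be seen: 204 of the probes higher at E14 had no P0 array, and 262 of those lower no E14 array, above background.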
